A study of Rattus norvegicus with 30 samples.

Results

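Adrenal RNA of orchiectomized (ORX) male rats was set against that of sham-operated control males, with 5 arrays in each group out of the 30 arrays of the series. The 10 arrays were taken by their titles, as gonadectomized males without hormone and as male controls, and each array carried the adrenal RNA of 1 rat. All rats were Wistar, 12 weeks old, operated under ketamine and xylazine, kept on 14 hours of light and 10 hours of dark with lights on at 6 in the morning, and handled between 10 and 11 in the morning. ORX males had lost the testes by the scrotal route 4 weeks before the glands were collected and received no hormone. Further arrays of the series are set beside this comparison, and all 30 arrays entered the fit that gives its SE and adjusted p. ORX+T males were castrated likewise and injected under the skin with 5 mg of testosterone depot per 100 g of body weight on day 14. OVX females had the ovaries removed and no hormone, and control females were sham operated, again with 5 arrays each. OVX+E females, also 5 arrays, were ovariectomized and injected with 0.5 mg of estradiol depot per 100 g of body weight on day 14. Their arrays entered the fit but are not compared here. Entire adrenals were extracted, so cortex, medulla and capsule were read together. A whole gland cannot tell fewer cells of a type from less RNA per cell. The table has 36685 probe sets. Of these, 14824 are annotated to a single gene symbol, and each of 14557 genes was read from the brightest of its own.

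The adrenal cortex makes corticosterone and aldosterone from cholesterol, and the medulla, built of chromaffin cells, makes catecholamines. The rat adrenal forms little androgen of its own, since its cortex hardly expresses the 17-hydroxylase Cyp17a1, so the testis is the main source of circulating testosterone. Orchiectomy removes that hormone, and the testosterone depot supplies it again. The paper reports heavier seminal vesicles in ORX+T than in sham-operated males and gives no testosterone level. Whether ORX+T males had the level of intact males is therefore not known here.

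Genes of the cortex and medulla stood well above the array medians in both groups. Mean log2 signals in ORX adrenals and in control adrenals were 11.69 and 11.71 for Cyp11a1, which starts steroid synthesis, 11.36 and 11.07 for Cyp11b1, which makes corticosterone, 9.91 and 9.85 for the aldosterone synthase Cyp11b2, and 10.08 and 10.20 for tyrosine hydroxylase, Th. Cyp17a1 read 3.90 in ORX adrenals and 3.90 in control adrenals, under the median signal of every array. The spread of signals differed between arrays in a way that the groups do not explain. The SD over all probe sets was 1.45 and 1.55 on ORX replicates 3 and 5 and 1.54 on control replicate 3, and lay between 1.67 and 1.74 on the other 7 arrays. Mean SDs were 1.64 in ORX arrays and 1.68 in control arrays, and the groups overlapped (exact two-sided permutation test, p = 0.651). Across the whole series 11342 genes, 77.9%, followed the array SD at an adjusted p under 0.05. Every difference below is therefore given as measured and, where it matters, with the array SD added to the fit as a covariate.

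Among the genes read from a single symbol, orchiectomy was followed by few changes large enough to pass the test, and 7 of the 8 were losses. Of 14557 genes, 8 (0.055%) passed both limits, a fold above 2 and 0.05 for the adjusted p of limma, which was fitted to all 30 arrays with 1 mean per group. Dbp rose. Cd36, Spetex2g, Gpr55, Tubb3, Npas2, Bmal1 and Stard10 fell (0.0481%), and the same 8 genes passed without the fold limit. After quantile normalization of the arrays the calls were 7 higher and 13 lower. The balance turned without the arrays of narrow spread, with 18 higher and 7 lower, and with array weights, with 29 higher and 15 lower. An unadjusted p under 0.05 was reached by 687 genes (4.72%). The 5 ORX values and the 5 control values did not overlap for 141 genes (0.969%), with ORX higher for 83 (0.57%) and lower for 58 (0.398%). After median centring of the arrays that split was 36 higher and 96 lower. Fitted to the 10 arrays alone, the test left Dbp (adjusted p = 0.0487) and Gpr55 (adjusted p = 0.0203).

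With the array SD as a covariate, 24 genes (0.165%) were called, 12 higher (0.0824%) and 12 lower (0.0824%) in ORX adrenals, and all 8 genes above were among them. By adjusted p alone the covariate gave 133 higher (0.914%) and 113 lower (0.776%). The added losses were Dhrs3, Ass1, Slc7a5, Capn8 and Oacyl. The added gains were Osgin2, Tcaf1, Dusp4, Ccp110, Giot1, Nptx2, Slfn9, Ndrg1, Ddit4, Rgs2 and Gbp6. Of the 24 genes, 12 had groups that did not overlap, 19 kept an adjusted p under 0.05 when the arrays of narrow spread were left out, and 19 when the covariate was fitted to the 10 arrays alone. These 19 and 19 came from smaller fits, of 20 and of 10 arrays.

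**Figure D1:**
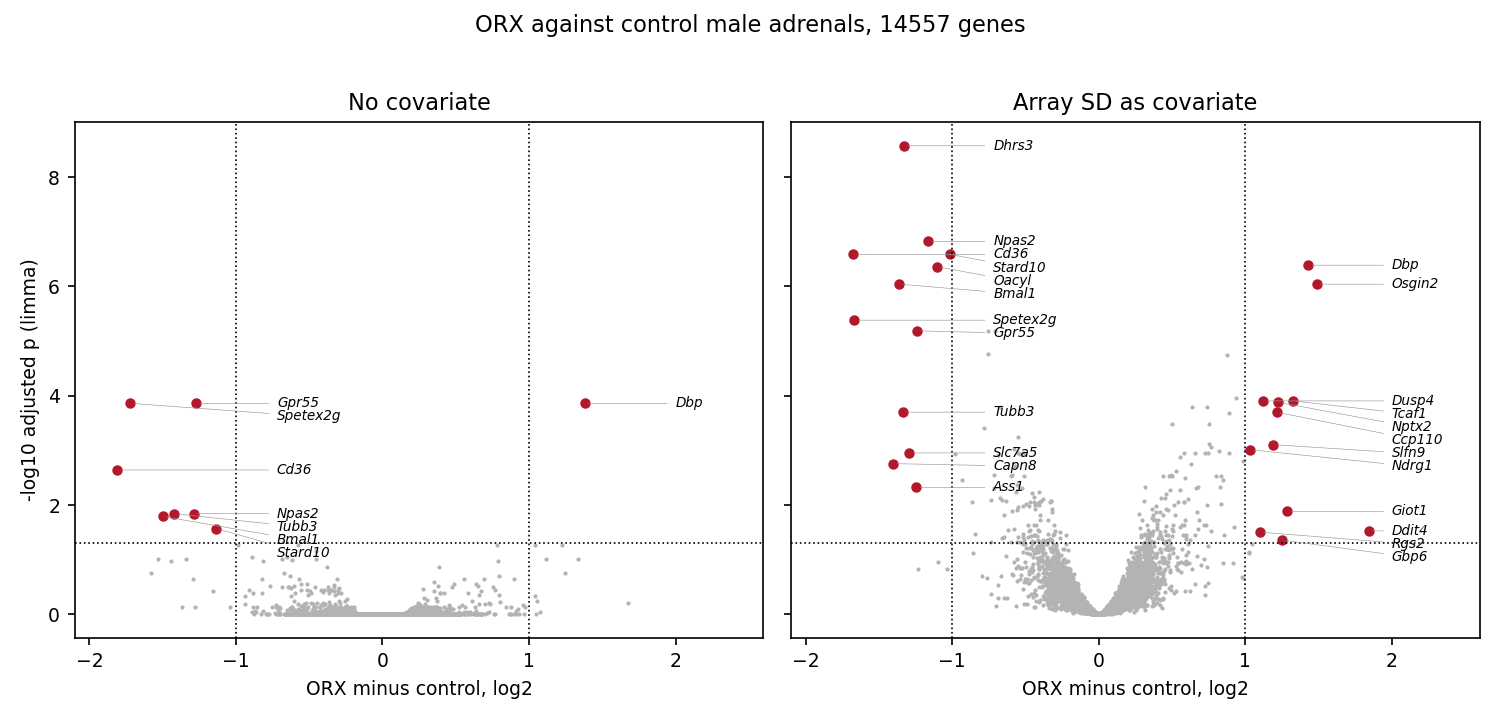
Difference in log2 signal between ORX and control male adrenals (x axis) against the negative log10 of limma's adjusted p (y axis) for 14557 genes, without a covariate (left) and with the array SD as covariate (right). Red points are the 8 and the 24 genes past both dotted limits, a fold of 2 and an adjusted p of 0.05, and the points spread upwards on both sides once the array SD is in the fit.

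Gpr55 and Spetex2g had the smallest adjusted p among the losses. Gpr55 encodes a receptor for lysophosphatidylinositol, a signalling lipid, and also answers some cannabinoids. Its log2 signal was 4.62, 4.63, 4.28, 4.46 and 4.61 in ORX replicates 1 to 5, against 5.54, 6.10, 5.52, 5.86 and 5.95 in control replicates 1 to 5. The highest ORX value lay below the lowest control value by more than the whole range of the ORX group. Means were 4.52 ± 0.15 in ORX adrenals and 5.79 ± 0.26 in control adrenals (SD, n = 5 each), a difference of -1.27 (SE 0.17, adjusted p = 0.000138, limma). That is a 2.42-fold lower signal after ORX. Array medians of the ORX group ran from 4.40 to 4.58, so Gpr55 was left near the middle of all probe sets there, and under the array median on 1 ORX array. ORX+T adrenals read 6.71, 5.76, 6.78, 7.10 and 6.65. Those values were higher than in ORX adrenals (difference 2.08, adjusted p = 3.16e-09) and also higher than in control adrenals (difference 0.81, adjusted p = 0.00896). The ORX+T comparisons reuse the ORX or the control arrays, here and below, and so are set beside the main one and add no independent support to it.

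Spetex2g belongs to a rat gene family named for expression in testis germ cells. It read 4.99, 4.61, 4.48, 4.60 and 4.54 in ORX adrenals, against 5.85, 6.52, 5.76, 6.89 and 6.80 in control adrenals. Every ORX value lay below every control value, and 2 of the ORX values lay under their array medians. The difference was -1.72 (SE 0.22, adjusted p = 0.000138), a 3.29-fold lower signal in ORX adrenals. ORX+T adrenals read 5.49, 4.97, 5.69, 5.72 and 5.46, all below the control values and all but the second above the ORX values. They differed from ORX adrenals by 0.82 (adjusted p = 0.0461) and from control adrenals by -0.90 (adjusted p = 0.0419). The family has 4 measured genes, and the other members, Spetex2e, Spetex2f and Spetex2l1, had differences of -0.09, -0.07 and -0.15, none past the test. Spetex2l1 did not overlap between the groups. Genes of such a family can share probe sequence, so which transcripts this probe set reads is uncertain. Of 5 measured testis germ cell markers 0 passed, with a median difference of 0.13. Of these markers 4 lay under the array medians, as did 3 of the 4 Spetex genes. A fall could hardly be seen in genes so dim.

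Tubb3 and Stard10 fell in the fit to all arrays but were closer to the limit. Tubb3 is the class III beta tubulin, best known as a marker of neurons. Its signal was 5.18, 5.50, 4.76, 5.22 and 4.64 in ORX adrenals, against 6.36, 6.69, 5.79, 6.68 and 6.89 in control adrenals. The ranges did not touch, and the lowest control value came from the narrow array. The difference was -1.42 (SE 0.25, adjusted p = 0.0144), or 2.68-fold lower. Leaving out ORX replicate 5, control replicate 4 or control replicate 5 ended the call, with adjusted p of 0.0625, 0.0707 and 0.0682. In ORX+T adrenals Tubb3 averaged 6.21, which was 1.15 higher than in ORX adrenals (adjusted p = 0.00797) and -0.27 from control adrenals (adjusted p = 1.0). Among 10 measured markers of neurons and nerve Tubb3 alone passed, the median of the list being 0.03. Among 11 tubulins it was again the only one, beside Tuba4a at -0.36 and Tubb2a at -0.30, which did not pass.

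Stard10 carries phosphatidylcholine and phosphatidylethanolamine between membranes through its START lipid-binding domain. ORX adrenals read 8.63, 8.81, 7.68, 8.60 and 8.29, against 9.60, 9.57, 9.04, 9.73 and 9.74 in control adrenals. Both groups had their lowest value on replicate 3, a narrow array in each, and the groups did not overlap. The difference of -1.13 (SE 0.21, adjusted p = 0.027) made Stard10 2.19-fold lower after ORX. It was -0.98 between the arrays of wide spread, 3 ORX and 4 control, and -1.06 between the narrow ones, 2 ORX and 1 control. Without ORX replicate 3, ORX replicate 5 or any control replicate other than 3, the gene was no longer called, with adjusted p from 0.0503 to 0.122. ORX+T adrenals averaged 9.59 ± 0.20, higher than ORX adrenals by 1.19 (adjusted p = 0.00104) and 0.05 from control adrenals. The other 9 measured genes of the START domain list did not pass, among them the ceramide carrier Cert1 at -0.42 and Dlc1 at -0.35.

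The bases upstream of these 4 losses and of Tcaf1, the gain outside the clock with the lowest p among the genes read, are shown as the DNA nearest to each start. They are the 250 bases before each annotated start in RefSeq on the build GRCr8, written 5′ to 3′ along the gene. Capitals mark matches, on either strand, to the cAMP response element TGACGTCA and the GC box GGGCGG, which shows as CCGCCC on the opposite strand. Gpr55 lies at chr9:94060758-94061007 on the minus strand, Spetex2g at chr15:5933559-5933808 on the minus strand, Tubb3 at chr19:68365437-68365686 on the plus strand, Stard10 at chr1:165134487-165134736 on the plus strand and Tcaf1 at chr4:72639305-72639554 on the minus strand.
Gpr55: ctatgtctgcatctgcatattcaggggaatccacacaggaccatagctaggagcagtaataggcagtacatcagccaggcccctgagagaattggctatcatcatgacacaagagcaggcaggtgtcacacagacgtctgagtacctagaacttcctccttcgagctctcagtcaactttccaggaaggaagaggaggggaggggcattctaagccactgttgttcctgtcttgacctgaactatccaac
Spetex2g: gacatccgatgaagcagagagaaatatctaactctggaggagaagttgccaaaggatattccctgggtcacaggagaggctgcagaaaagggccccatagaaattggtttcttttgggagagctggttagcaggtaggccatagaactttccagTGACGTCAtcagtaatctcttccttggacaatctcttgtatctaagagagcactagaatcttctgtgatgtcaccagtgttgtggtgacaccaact
Tubb3: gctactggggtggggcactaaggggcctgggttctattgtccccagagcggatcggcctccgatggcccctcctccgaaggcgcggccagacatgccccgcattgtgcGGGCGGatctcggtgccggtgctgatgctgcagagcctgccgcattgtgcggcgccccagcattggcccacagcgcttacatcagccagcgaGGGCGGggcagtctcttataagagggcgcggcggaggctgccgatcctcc
Stard10: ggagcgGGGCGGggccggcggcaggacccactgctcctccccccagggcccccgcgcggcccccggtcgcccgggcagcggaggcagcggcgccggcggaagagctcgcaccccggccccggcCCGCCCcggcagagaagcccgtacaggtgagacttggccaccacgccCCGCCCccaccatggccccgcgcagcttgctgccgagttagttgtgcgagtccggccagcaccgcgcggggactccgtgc
Tcaf1: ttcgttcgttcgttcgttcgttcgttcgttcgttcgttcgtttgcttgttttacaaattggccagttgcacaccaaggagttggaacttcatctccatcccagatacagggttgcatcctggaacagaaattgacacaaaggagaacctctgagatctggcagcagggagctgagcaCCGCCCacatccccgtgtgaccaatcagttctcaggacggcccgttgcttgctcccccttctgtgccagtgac
A cAMP response element lies 96 to 89 bases before the start of Spetex2g, and 1.59% of the 33469 promoters of the table hold one. GC boxes are found 2 times before Tubb3, 3 times before Stard10 and 1 time before Tcaf1, against 30.5% of promoters with at least 1. A promoter was available for 21 of the 24 genes called with the covariate, of which 10 held a GC box and 2, Spetex2g and Giot1, a cAMP response element. Elements farther from the start were not searched.

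Dhrs3 and Cyp4f4 were lower in every ORX array but missed the adjusted limit. Dhrs3 reduces retinaldehyde to retinol and so limits retinoic acid. Its signal was 8.26, 8.44, 6.79, 8.04 and 7.26 in ORX adrenals, against 9.26, 9.35, 8.51, 9.70 and 9.62 in control adrenals. The narrow arrays were the lowest of both groups. The difference was -1.53 (SE 0.35, adjusted p = 0.0965) without and -1.33 (adjusted p = 2.67e-09) with the array SD in the fit, the smallest adjusted p of any gene there. Replacement left Dhrs3 at 10.01 on average, 2.25 above ORX adrenals (adjusted p = 0.000135). Cyp4f4, a cytochrome P450 that hydroxylates fatty acids and eicosanoids, read 5.08, 4.81, 4.66, 4.96 and 5.02 in ORX adrenals, against 6.53, 5.64, 5.25, 6.00 and 6.02 in control adrenals. The groups did not overlap, and the difference was -0.98 (SE 0.20, adjusted p = 0.0529). With the covariate it was -0.94 (adjusted p = 0.0035). Without control replicate 3 it was -1.14 and passed (adjusted p = 0.0078). ORX+T adrenals averaged 7.42, above ORX adrenals by 2.51 (adjusted p = 3.74e-09) and above control adrenals by 1.53 (adjusted p = 3.72e-05).

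Ass1, Slc7a5 and Acsbg1 had lower means in ORX adrenals that did not pass the test, and were higher than control after replacement. Ass1 is argininosuccinate synthase, which rebuilds arginine from citrulline. It read 7.59, 8.03, 7.14, 6.91 and 6.16 in ORX adrenals, against 7.95, 8.95, 8.51, 8.54 and 8.58 in control adrenals. ORX replicate 2 lay above control replicate 1, so the groups overlapped, and the difference of -1.34 did not pass (adjusted p = 0.0965). With the covariate Ass1 was called, at -1.24 (adjusted p = 0.00475), and without ORX replicate 2 at -1.56 (adjusted p = 0.0311). It was not called with the covariate on the 10 arrays alone (adjusted p = 0.0651) or without the narrow arrays (adjusted p = 0.146). Slc7a5, the carrier for large neutral amino acids, read 7.49, 7.48, 5.48, 6.85 and 5.95 in ORX adrenals, against 7.47, 8.53, 7.66, 8.45 and 8.34 in control adrenals. Here the overlap was of ORX replicates 1 and 2 with control replicate 1, and the narrow arrays were the lowest of the ORX group. Its difference was -1.44 (adjusted p = 0.105), and -1.29 with the covariate (adjusted p = 0.00111), while the fit without the narrow arrays gave an adjusted p of 0.0923. Acsbg1, which activates long-chain fatty acids, averaged 5.57 ± 0.21 in ORX adrenals and 6.22 ± 0.32 in control adrenals (SD, n = 5 each, difference -0.65, adjusted p = 0.09), and differed by -0.63 with the covariate (adjusted p = 0.00857). In ORX+T adrenals these genes read 10.11, 9.78 and 10.20 on average. Against control adrenals that was higher by 1.60 for Ass1 (adjusted p = 0.00332), by 1.69 for Slc7a5 (adjusted p = 0.00602) and by 3.98 for Acsbg1 (adjusted p = 2.76e-17). In the comparison of ORX+T with control males 137 genes (0.941%) passed, and 299 (2.05%) in that of ORX+T with ORX.

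Further losses were called with the covariate and not in the fit without it. Capn8, a calcium-dependent protease, ranged from 5.03 to 6.62 in ORX adrenals (median 5.78) and from 6.04 to 8.01 in control adrenals (median 7.59), with a difference of -1.58 (adjusted p = 0.175) and, with the covariate, -1.40 (adjusted p = 0.00174). Without control replicate 3 it was -1.89 (adjusted p = 0.0379). Oacyl ranged from 5.05 to 6.74 in ORX adrenals and from 6.67 to 7.54 in control adrenals, the lowest control value being that of the narrow array. With the covariate its difference was -1.10 (adjusted p = 4.35e-07). Eepd1, an endonuclease of DNA repair, did not overlap between the groups and averaged 8.99 ± 0.38 in ORX adrenals and 9.80 ± 0.24 in control adrenals (difference -0.81, adjusted p = 0.105). The covariate fit gave -0.71 (adjusted p = 6.58e-06), short of the fold limit.

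**Figure D2:**
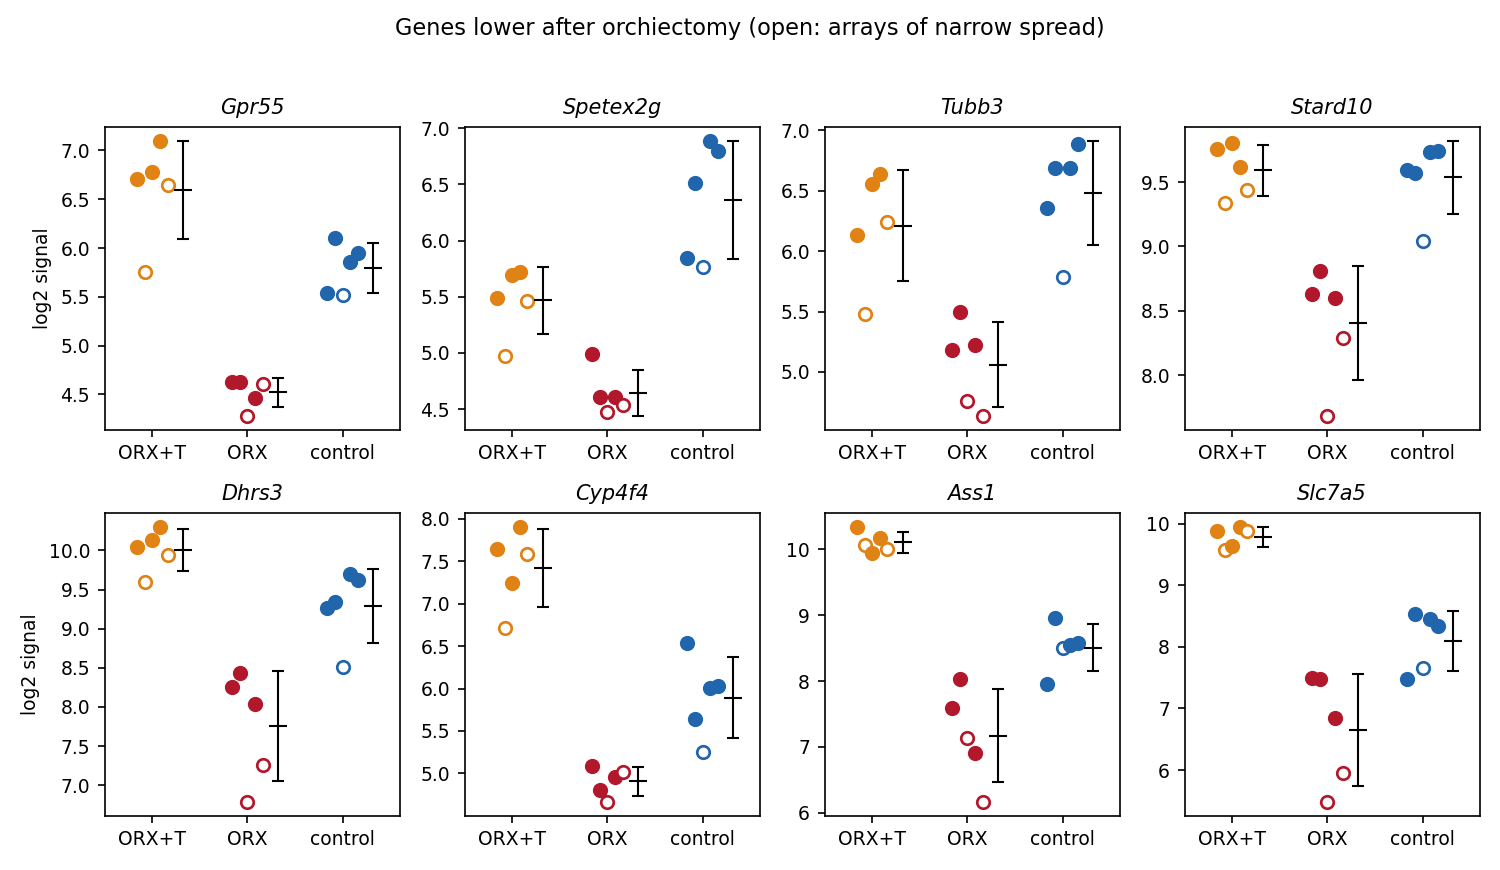
Log2 signal (y axis) of 8 genes that were lower in ORX adrenals, for each array of ORX+T, ORX and control males (x axis, n = 5 each). Points are arrays, open ones those of narrow spread, and bars give the mean and SD. For Gpr55, Spetex2g, Tubb3, Stard10, Dhrs3 and Cyp4f4 every ORX point lies below every control point, and for Ass1 and Slc7a5 they overlap while the ORX+T points lie above both.

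In the fit of all 30 arrays without the covariate no gain outside the clock passed, though several kept the groups apart, and Tcaf1, Dusp4, Osgin2 and Ccp110 passed in each of the fits after quantile normalization, with array weights and without the narrow arrays. Tcaf1 encodes a partner of the cold-sensing channel TRPM8. It read 8.31, 8.65, 7.81, 8.63 and 8.26 in ORX adrenals, against 6.52, 7.34, 6.77, 7.40 and 7.52 in control adrenals. All ORX values lay above all control values. The difference was 1.23 (SE 0.25, adjusted p = 0.0529), a 2.34-fold higher signal, and 1.32 with the covariate (adjusted p = 0.000124). Without ORX replicate 3 it passed (difference 1.36, adjusted p = 0.0293). ORX+T adrenals averaged 6.35, lower than ORX adrenals by 1.98 (difference -1.98, adjusted p = 9.92e-06).

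Dusp4, a phosphatase that switches off MAP kinases, read 6.58, 6.63, 5.95, 6.23 and 5.93 in ORX adrenals, against 5.47, 5.55, 4.99, 4.84 and 5.27 in control adrenals. The groups did not overlap, at a difference of 1.04 (SE 0.21, adjusted p = 0.0529), and of 1.12 with the covariate (adjusted p = 0.000124). Without ORX replicate 3 Dusp4 was called (difference 1.12, adjusted p = 0.0454). Osgin2, of a family induced by oxidative stress, read 9.52, 9.42, 8.72, 9.68 and 9.21 in ORX adrenals, against 8.32, 8.51, 7.53, 7.81 and 7.71 in control adrenals. It was again separate, with a difference of 1.33 (SE 0.30, adjusted p = 0.0965) and, with the covariate, 1.49 (adjusted p = 9.09e-07). Both were lower in ORX+T adrenals than in ORX adrenals. ORX+T minus ORX was -0.98 for Dusp4 (adjusted p = 0.00803) and -1.68 for Osgin2 (adjusted p = 0.000938), and ORX+T minus control was 0.06 and -0.34, neither past the test.

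Ccp110 and Giot1 were higher in most ORX arrays with some overlap. Ccp110 caps the centriole and holds back cilium formation. It read 8.67, 8.47, 7.66, 7.87 and 7.24 in ORX adrenals, against 6.73, 7.42, 6.82, 6.66 and 6.73 in control adrenals, so that control replicate 2 passed ORX replicate 5. The difference was 1.11 (adjusted p = 0.0965), and 1.21 with the covariate (adjusted p = 0.0002). Giot1, a zinc finger protein first described in the rat ovary as induced by gonadotropin, read 10.85, 11.04, 10.02, 10.44 and 9.84 in ORX adrenals, against 9.02, 10.46, 9.56, 8.39 and 8.54 in control adrenals. Control replicate 2 was again the high one. Giot1 differed by 1.25 (adjusted p = 0.175), and by 1.29 with the covariate (adjusted p = 0.0131, and 0.151 with the covariate on the 10 arrays alone). Without control replicate 2 the difference was 1.56 and passed (adjusted p = 0.0142). ORX+T adrenals averaged 7.64, lower than control adrenals as well (difference -1.55, adjusted p = 0.00583).

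Smaller gains with no overlap between the groups came from Mturn, Me1, Il18, Cldnd1 and Prss35. Mturn averaged 8.61 ± 0.21 in ORX adrenals and 7.82 ± 0.22 in control adrenals (difference 0.79, adjusted p = 0.105). Me1, the cytosolic malic enzyme that supplies NADPH, averaged 10.53 ± 0.19 in ORX adrenals and 9.88 ± 0.17 in control adrenals (difference 0.66, adjusted p = 0.307). The cytokine Il18 averaged 9.34 ± 0.16 in ORX adrenals and 8.68 ± 0.32 in control adrenals (difference 0.66, adjusted p = 0.441). Cldnd1 differed by 0.70 and Prss35, a serine protease-like protein, by 0.75. With the covariate all 5 had an adjusted p from 1.8e-05 to 0.0046, at differences from 0.74 to 0.88 that stayed under the fold limit. Mturn differed from the rest in ORX+T adrenals, where it averaged 8.50 and differed from ORX adrenals by -0.11 (adjusted p = 0.998), while the same difference was -1.21, -1.17, -1.21 and -0.81 for Me1, Il18, Cldnd1 and Prss35, each past the test.

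Ddit4, Rgs2 and Gbp6 were gains called with the covariate whose groups overlapped. Ddit4, an inhibitor of the growth kinase complex mTORC1 induced by stress and glucocorticoids, read 8.74, 8.34, 6.80, 9.06 and 8.28 in ORX adrenals, against 9.43, 6.18, 5.25, 5.97 and 6.00 in control adrenals. Control replicate 1 was the highest of all 10 arrays. The difference was 1.68 (adjusted p = 0.611), 1.84 with the covariate (adjusted p = 0.0297), and 2.39 without control replicate 1 (adjusted p = 0.0105). Rgs2, which shortens G protein signals, and the interferon-induced GTPase Gbp6 differed by 1.10 (adjusted p = 0.0312) and 1.25 (adjusted p = 0.0437) with the covariate. When the covariate was fitted to the 10 arrays alone, the adjusted p was 0.26 for Ddit4, 0.246 for Rgs2 and 0.219 for Gbp6, and without the narrow arrays it was 0.153, 0.0887 and 0.327. Nptx2, Ndrg1 and Slfn9 differed by 1.05, 0.88 and 1.04 without the covariate, none past the test, and by 1.23, 1.03 and 1.19 with it (adjusted p = 0.000132, 0.000969 and 0.000785).

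**Figure D3:**
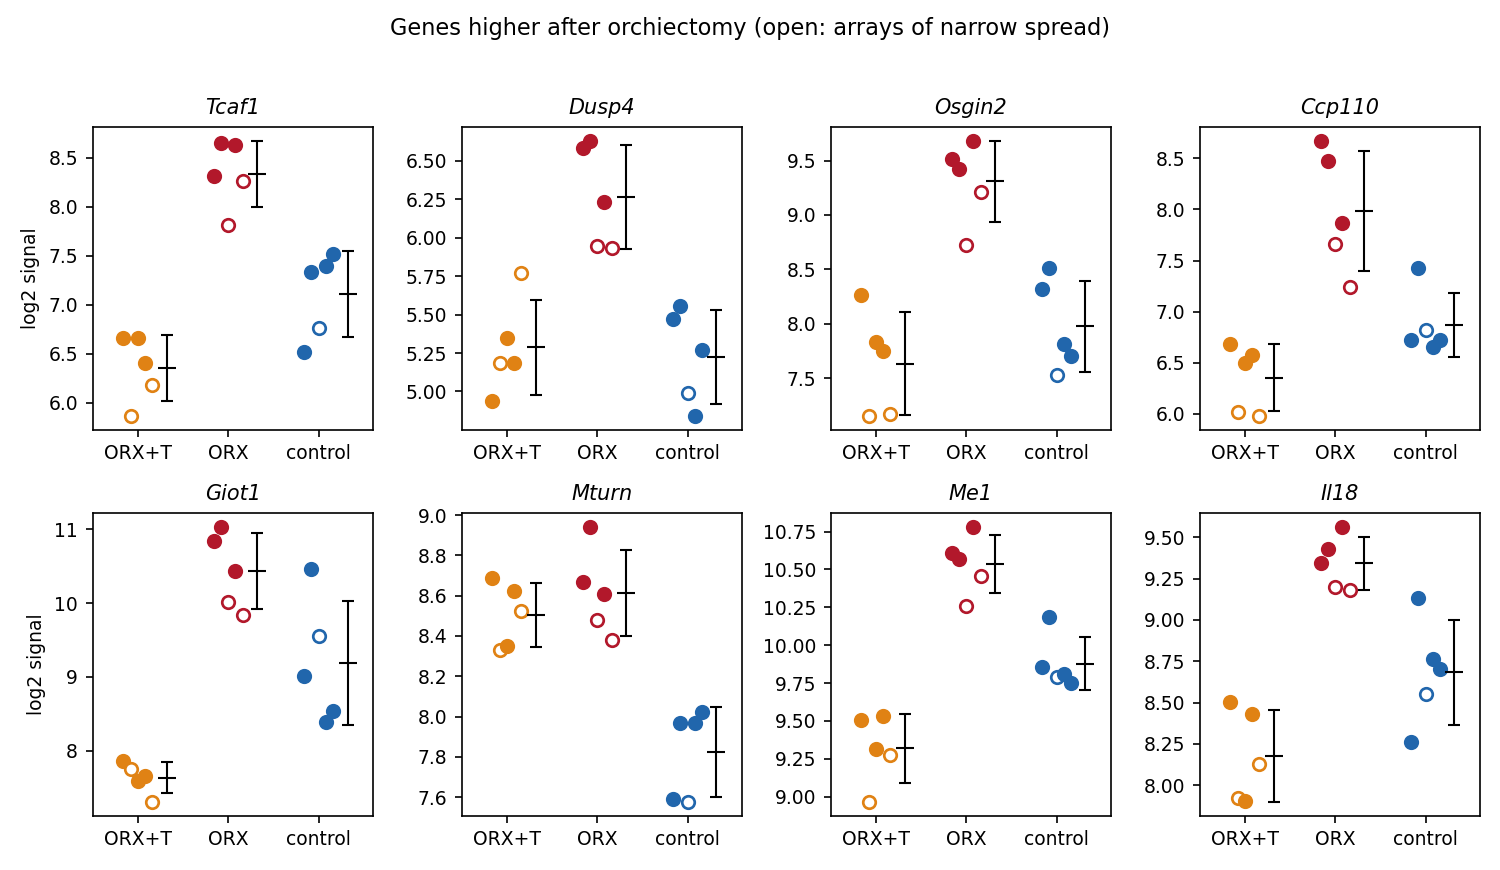
Log2 signal (y axis) of 8 genes that were higher in ORX adrenals, for each array of ORX+T, ORX and control males (x axis, n = 5 each). Points are arrays, open ones those of narrow spread, and bars give the mean and SD. ORX and control points do not overlap for Tcaf1, Dusp4, Osgin2, Mturn, Me1 and Il18, and Mturn is the panel where ORX+T points lie level with the ORX points.

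The clock genes and Cd36 are given in brief. Dbp, an output of the circadian clock, averaged 10.01 ± 0.15 in ORX adrenals and 8.63 ± 0.38 in control adrenals (difference 1.38, adjusted p = 0.000138), and Bmal1 and Npas2, which drive the clock from its positive side, differed by -1.50 (adjusted p = 0.0161) and -1.29 (adjusted p = 0.0144). Per3, a repressor of the clock, differed by 0.78 with no overlap between groups (adjusted p = 0.0529). ORX+T adrenals stayed on the ORX side for these 4 genes, with ORX+T minus ORX at 0.14, -0.70, -0.09 and 0.56 for Dbp, Bmal1, Npas2 and Per3, none past the test. The glands were collected within 1 stated hour, so level and phase of a daily rhythm cannot be told apart. Cd36, a fatty acid transporter, averaged 6.71 ± 0.58 in ORX adrenals and 8.52 ± 0.38 in control adrenals (difference -1.81, adjusted p = 0.00228). Bmal1 lost its call without ORX replicate 3 or 5 or control replicate 2, 4 or 5, and Npas2 without ORX replicate 5 or control replicate 4 or 5, with adjusted p from 0.0503 to 0.0707. Dbp, Gpr55, Cd36 and Spetex2g were called whichever of the 10 arrays was left out.

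The OVX and control female arrays form neither group of any comparison above, so the same genes were read in them. They did enter the fit of all arrays, without and with the covariate. The SE and adjusted p from that fit therefore rest on arrays of both sexes, and the male and female tests are not fully independent. In OVX against control females 24 genes (0.165%) passed by adjusted p, and Dbp was among them at 1.66 (adjusted p = 4.66e-06). Of the genes with higher means after ORX, Mturn, Ccp110 and Giot1, which did not pass there in this fit, passed after OVX, at 1.13 (adjusted p = 0.00292), 1.24 (adjusted p = 0.0312) and 1.42 (adjusted p = 0.0462). Osgin2 and Dusp4 differed by 1.18 and 0.91 after OVX and did not pass (adjusted p = 0.137 and 0.0873). None of the losses passed after OVX. Gpr55 averaged 4.39 ± 0.13 in OVX and 4.51 ± 0.15 in control female adrenals (SD, n = 5 each, difference -0.12), and Tubb3 differed by 0.28 between OVX and control females. Of the other called losses, Bmal1, Stard10, Spetex2g and Npas2 had lower means after OVX as well, by -0.88, -0.69, -0.67 and -0.44. Cd36 differed by only -0.15 (SE 0.28). Among losses that missed the limit, Dhrs3 differed by -0.62, Ass1 by 0.09 and Slc7a5 by 0.90.

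Whether the male response differed from the female one was tested as the difference between both differences. 1 gene (0.00687%) passed, Hspa1b, at -0.91 (adjusted p = 0.0206). It differed by -0.21 after ORX and by 0.69 after OVX, and 4 of its 5 ORX values lay under their array medians, so the size is uncertain. The same test gave -1.15 for Gpr55 (adjusted p = 0.13), -1.70 for Tubb3 (adjusted p = 0.136), -2.34 for Slc7a5 (adjusted p = 0.13) and -1.65 for Cd36 (adjusted p = 0.361), so a difference between the sexes was not shown there. With the array SD in the fit 93 genes (0.639%) passed, 55 with the ORX response higher and 38 with it lower. Slc7a5 (-2.22, adjusted p = 0.000283), Cd36 (-1.55, adjusted p = 0.000683), Tubb3 (-1.64, adjusted p = 0.00409), Gpr55 (-1.13, adjusted p = 0.0102) and Dhrs3 (-0.75, adjusted p = 0.0137) were among them, each lower after ORX relative to OVX, as were Oacyl (adjusted p = 0.0142) and Npas2 (adjusted p = 0.0202). Slfn9 passed in the other direction, higher after ORX relative to OVX (adjusted p = 0.00296). Spetex2g (-1.01, adjusted p = 0.095), Ass1 (-1.35, adjusted p = 0.0643), Stard10 (-0.35, adjusted p = 0.344) and Bmal1 (-0.51, adjusted p = 0.353) did not pass. Nor did Tcaf1, Dusp4, Osgin2, Ccp110, Giot1 and Mturn. Some genes lower after ORX relative to OVX already read about as low in control females as in ORX males. Means were 4.51 and 4.52 for Gpr55, 5.22 and 5.06 for Tubb3, 6.36 and 6.65 for Slc7a5, and 7.10 and 6.71 for Cd36. Gpr55 lay near the array medians there, which leaves it little room to fall after OVX. Dhrs3, Oacyl and Npas2 read higher in control females than in ORX males. The part of starting level in these differences was not tested.

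**Figure D4:**
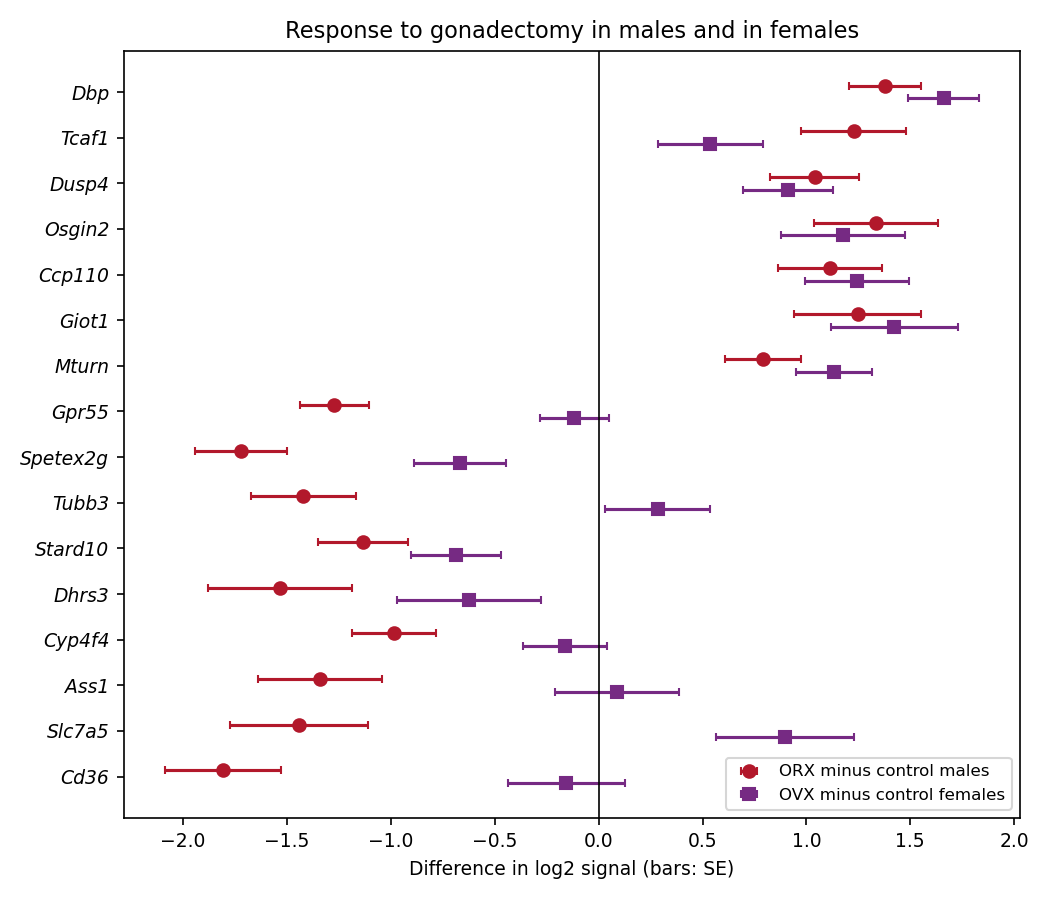
Difference in log2 signal (x axis) after gonadectomy for 16 genes (y axis), as ORX minus control males (red circles) and OVX minus control females (purple squares). Bars are the SE from limma with n = 5 arrays a group. Dusp4, Osgin2, Ccp110, Giot1 and Mturn lie to the right in both sexes, and Spetex2g, Stard10 and Dhrs3 to the left in both. Gpr55, Tubb3, Ass1 and Slc7a5 lie to the left in males and near or right of 0 in females.

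The pathways around these genes moved little. Lists of genes were counted by adjusted p alone. They are read against the median over all genes, -0.0015 without and 0.024 with the array SD as covariate. Without it 7333 of the 14557 genes lay below 0. Of 15 measured genes of steroid synthesis 0 passed, with a median difference of 0.11. Star, which brings cholesterol into mitochondria, and Srd5a1, a steroid 5-alpha-reductase, were not analysed here. The paper reports that Srd5a1 rose after ORX, and a probe set without a symbol that probably reads it is given further below. Cyp11b1 differed by 0.30 (adjusted p = 0.746), the cytochrome P450 reductase Por by 0.52 (adjusted p = 0.887) and the ACTH receptor Mc2r by -0.41 (adjusted p = 0.901). With the covariate these genes passed, at 0.33, 0.64 and -0.32 (adjusted p = 0.0378, 0.000157 and 0.0428). In ORX+T adrenals Cyp11b1 and Mc2r lay on the other side of control, with ORX+T minus ORX at -0.97 (adjusted p = 7.24e-07) and 1.0 (adjusted p = 0.000496).

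Lipid handling beyond Cd36 and Stard10 gave no further call without the covariate. Cholesterol synthesis had 15 measured genes with a median of -0.07, 3 above and 12 below 0, and 0 passed in either fit. With the covariate its median was 0.02, so the lean below 0 did not hold. In cholesterol storage and export 0 of 13 passed without the covariate (median -0.05, and 0.02 with it). There the lipoprotein Apoe was separate between the groups at -0.40 (adjusted p = 0.611). The esterifying enzyme Soat1 passed with the covariate at 0.27 (adjusted p = 0.0147), as did Nceh1 (adjusted p = 0.0352). Fatty acid uptake and triglyceride storage had 19 measured genes, of which Cd36 alone passed, joined with the covariate by Lpin1, which rose (adjusted p = 0.0352). The lipid droplet coat Plin2 differed by -0.65 (adjusted p = 0.941). Of 25 genes of fatty acid oxidation and of 10 of lipogenesis 0 passed without the covariate. With it Acsbg1 (-0.63, adjusted p = 0.00857) and Fads1 (-0.33, adjusted p = 0.0084), a fatty acid desaturase, fell and Me1 (0.74, adjusted p = 0.000157) rose in these lists.

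Of 51 measured genes that androgen raises in prostate 0 passed without the covariate, 19 above and 32 below 0, with a median of -0.05. The median was -0.0033 with it. With the covariate 4 of 51 fell, namely Inpp4b, Lifr, Fads1 and B4galt1, against 0.776% of all genes, and 1 of 51 rose, Ndrg1, against 0.914% of all genes. Inpp4b, a phosphoinositide phosphatase, averaged 4.43 ± 0.21 in ORX adrenals and 4.98 ± 0.25 in control adrenals (difference -0.56, adjusted p = 0.273), and was -0.52 with the covariate (adjusted p = 0.0344). Lifr, the receptor of leukemia inhibitory factor, differed by -0.91 (adjusted p = 0.353), and by -0.76 with the covariate (adjusted p = 6.48e-06). Ndrg1 is known to be raised by androgen in prostate cells, and here it differed by 0.88 (adjusted p = 0.728).

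Among the receptors for peptides and growth factors 0 of 19 passed. Gnrhr, the receptor of gonadotropin-releasing hormone, differed by -0.76 (adjusted p = 0.307) and by -0.67 with the covariate (adjusted p = 0.00749), and Igf1r by 0.36 (adjusted p = 0.996) and by 0.45 with the covariate (adjusted p = 0.00733). The orexin receptor Hcrtr2 averaged 7.32 ± 0.74 in ORX adrenals and 7.75 ± 0.60 in control adrenals (difference -0.43, adjusted p = 0.996). Esrra differed by 0.19 (adjusted p = 0.996), with 3 of 5 ORX values and 5 of 5 control values under the array medians.

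Heat shock genes gave no call. All 15 measured members were below 0 without the covariate, with a median of -0.23, and 0 passed in either fit. With the covariate the median was -0.18, and some members lay above 0, among them Hspb8 at 0.11 and Hsp90ab1 at 0.09. The lean of every member therefore did not hold. The cochaperone Fkbp4 was at -0.70 and the small heat shock protein Hspb1 at -0.64. Of the chromaffin cell markers 0 of 13 passed in either fit, with 12 of 13 below 0 and a median of -0.17 (-0.05 with the covariate), and their summed level ran from 11.39 to 12.15 in ORX adrenals and from 11.75 to 12.38 in control adrenals (log2). Capsule and fibroblast markers were below 0 in 8 of 8, with a median of -0.12. With the covariate their median was -0.07, and Pdgfra lay above 0 at 0.06. Macrophage markers had 8 of 10 below 0 (median -0.07, and 0.0031 with the covariate). Without the covariate no marker but Tubb3 passed in these or the other cell type lists. With it Kcnk3 of the zona glomerulosa and Cyp11b1 and Mc2r of the zona fasciculata passed as well, and the part of cell makeup in the losses was not tested. Cd36 is also abundant in adipocytes, and of 11 measured adipocyte markers 0 passed, with a median difference of 0.0019. Their summed level ran from 9.74 to 10.52 in ORX adrenals and from 10.36 to 10.72 in control adrenals. That sum mainly follows Cidea, by far the brightest member, at means of 9.74 in ORX adrenals and 10.19 in control adrenals. Of the 11, 8 lay under the array medians, and Adipoq read 4.64 in ORX adrenals and 4.99 in control adrenals.

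**Figure D5:**
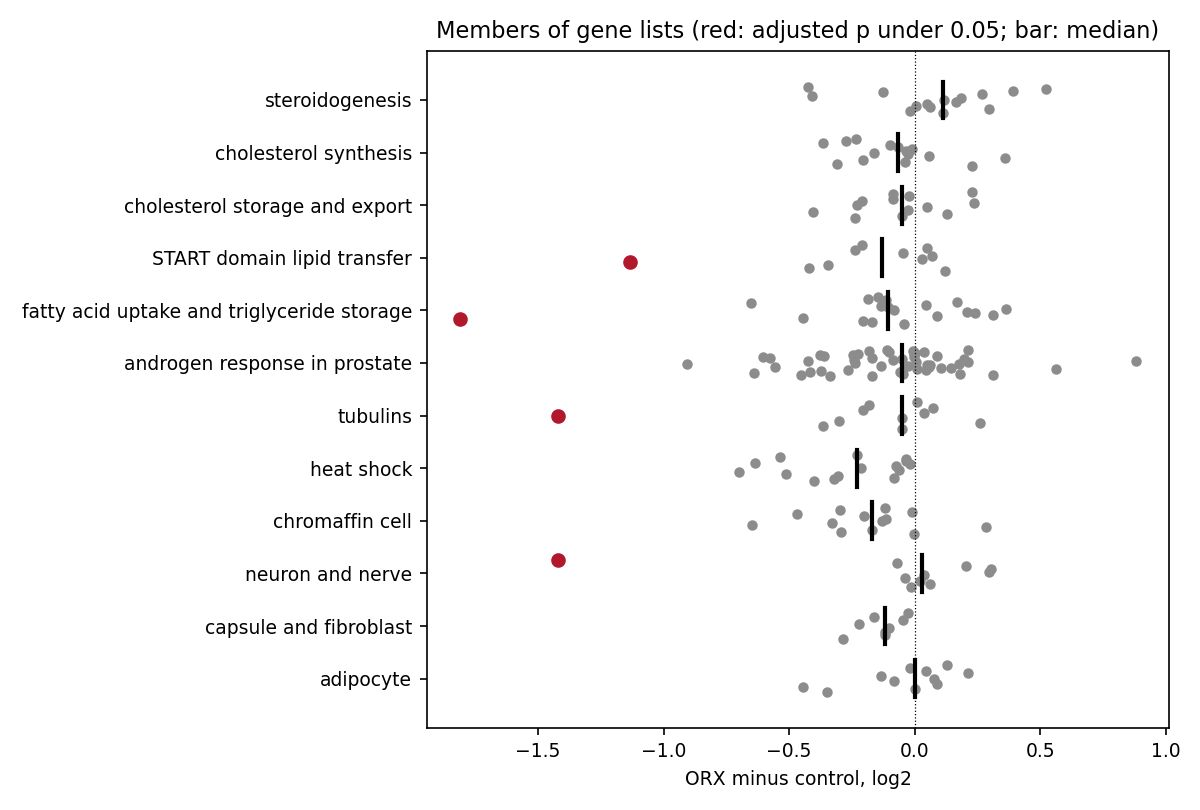
Difference in log2 signal between ORX and control adrenals (x axis) for each measured member of 12 gene lists (y axis). Points are genes, red ones those with an adjusted p under 0.05, and the upright bar is the median of the list. The red points are Stard10, Cd36 and, in 2 lists, Tubb3, and the 15 heat shock genes all lie left of 0 in this fit without the covariate.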

How the data were processed

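RNA of 30 adrenal samples was read on Affymetrix Rat Gene 2.1 ST arrays. The deposited values are log2 signals, which the authors obtained by RMA (affy), that is background correction, normalization between arrays and summary over probes. Which arrays were normalized together is not given in the sources used here. Gene names came from the platform annotation of the probe sets. Of 36685 probe sets 829 carried several symbols and 21032 none, and these were left out. 14416 of the 14557 genes were found in RefSeq by Entrez number, 0 under another symbol, and the build of that annotation is not given in the sources used here. Promoter sequences are from RefSeq, GRCr8.

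Differences came from limma 3.58.1 in R 4.3.3 on the deposited log2 values, without further scaling, in 1 fit of all 30 arrays with 24 residual and 2.92 prior degrees of freedom. Calls needed more than a 2-fold difference and an adjusted p (Benjamini and Hochberg, over all genes) under 0.05, the limits the authors state. An exact permutation test of 5 against 5 arrays cannot give a p below 0.00794. The number of arrays limits the precision. The array SD is taken over all probe sets, and arrays under 1.65 are called narrow.

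Named were the called genes, up to 20 by adjusted p in each direction, the 10 largest rises and 10 largest falls among genes whose groups did not overlap and whose brighter mean lay above the median, up to 3 members of lowest p from each list, and genes the study measured by QPCR. Genes called with the array SD covariate only, and a few others, were named after their values were seen. The members and the lists were chosen with earlier results of these data known. Replicate numbers were not taken as pairs of rats. Alternatives were a fit to the 10 or the 15 male arrays, the array SD as covariate, leaving out narrow arrays, weights per array, robust variances with an intensity trend, the replicate block, quantile normalization, median centring, the 60% brightest genes, the mean over probe sets, the brightest probe set on the 10 arrays, every probe set, no fold limit, and leaving out each array. The fit was tested on simulated data.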

Additional observations from a re-analysis of the deposited data

Results flagged for a closer look

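Of 104 groups of 5 arrays examined for the genes followed through all alternatives, 15 held a sample far from the others, where chance gives about 1 in 20. Control replicate 3, a narrow array, was the low sample for Bmal1 (7.24, the others 7.80 to 8.01), Stard10 (9.04, the others 9.57 to 9.74), Oacyl (6.67, the others 7.37 to 7.54), Por (8.01, the others 8.50 to 8.69), Lifr (7.45, the others 8.09 to 8.25) and Hcrtr2 (6.71, the others 7.79 to 8.20). ORX replicate 3, also narrow, was the low sample for Inpp4b (4.06, the others 4.46 to 4.58) and Apoe (9.37, the others 10.10 to 10.21). Control replicate 2 was the high sample for Ccp110 (7.42, the others 6.66 to 6.82), Me1 (10.18, the others 9.75 to 9.86) and Nptx2 (7.44, the others 6.51 to 6.68). Control replicate 1 was the high sample for Ddit4 (9.43, the others 5.25 to 6.18) and Hmox1 (6.41, the others 5.34 to 5.58). Control replicate 4 was low for Prss35 (4.53, the others 4.69 to 4.74), and ORX replicate 1 was high for Spetex2g (4.99, the others 4.48 to 4.61).

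The response of Hspa1b, an inducible chaperone, differed between the sexes by test, at -0.91 on the log2 scale. It averaged 4.38 ± 0.13 in ORX adrenals and 4.59 ± 0.23 in control male adrenals, and 5.09 ± 0.16 in OVX adrenals and 4.39 ± 0.16 in control female adrenals (SD, n = 5 each). Of its ORX values 4 of 5 lay under their array medians, so the size of this difference is uncertain.

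Probe sets without exactly 1 gene symbol also carried signal. When all 36685 probe sets were tested, 97 were lower and 9 higher. Of these, 91 belonged to the 21861 probe sets not used here, 2 with several symbols and 89 with none. Those 89 were 0.423% of the 21032 probe sets without a symbol. In the main fit, adjusted over genes alone, 0.055% of 14557 genes were called. Of the 89, 85 were lower and 4 higher in ORX adrenals, and the 85 showed 72 distinct sets of values, the most common of them shared by 10 probe sets. That set read 5.91, 5.76, 5.82, 5.60 and 5.37 in ORX adrenals, against 7.66, 8.39, 7.49, 8.30 and 8.42 in control adrenals, a difference of -2.36 (SE 0.30, adjusted p = 5.9e-05, limma). ORX+T minus ORX was 1.12 there (adjusted p = 0.0597). Over the 85 the median difference was -1.47, the median of ORX+T minus ORX was 0.74, with 11 past the test, and the median of OVX minus control females was -0.73. The largest unnamed rise read 8.10, 8.37, 8.31, 8.42 and 8.0 in ORX adrenals, against 5.67, 6.11, 5.03, 6.24 and 5.91 in control adrenals (difference 2.45, SE 0.26, adjusted p = 2.23e-05). In ORX+T adrenals it was lower again, with ORX+T minus ORX at -3.12 (adjusted p = 1.06e-08). OVX minus control females was 1.12 for this rise (adjusted p = 0.127). This probe set probably reads Srd5a1. The paper reports that Srd5a1 rose after ORX and after OVX, and that hormone replacement reversed both rises. Its fold and adjusted p for Srd5a1 after ORX, and its fold after OVX, equal those of this probe set. What the other probe sets without a symbol read is not stated in the tables used here.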

How the results depend on the processing

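The direction of the 52 named genes held in all 1247 values under the alternatives, of which 1129 stayed on their side of the call, 30 lost it and 88 gained it. What did change was the number of calls. Main counts were 1 risen and 7 fallen at a fold above 2, 1 and 7 by adjusted p alone, 141 without overlap, 1 and 7 among list members, and 1 gene for the difference between responses to ORX and OVX. With the array SD as covariate they were 12 and 12, 133 and 113, 17 and 17 list members, and 93 genes. The covariate on the 10 arrays gave 9 and 11, 52 and 48, and 7 and 12 list members. Without the narrow arrays, which leaves 3 against 4, they were 18 and 7, 100 and 49, 1790 without overlap, 13 and 11 list members, and 17 genes for the difference between responses. Array weights gave 29 and 15, 282 and 294, and 33 and 21 list members. Quantile normalization gave 7 and 13, 47 and 57, 341 without overlap, 7 and 13 list members, and 24 genes for the difference between responses. Median centring gave 4 fallen and 4 list members fallen. The fit to the 10 arrays gave 1 fallen by either limit and 1 list member fallen, and that to the 15 male arrays 4 fallen, 2 risen by adjusted p alone and 4 list members fallen. The 60% brightest genes, being fewer, gave 3 risen, 4 by adjusted p alone, 70 without overlap, and 2 list members risen. Every probe set gave 9 and 97, 17 and 178, and 476 without overlap. The alternatives for list members and for groups without overlap were chosen after seeing the data. Apart from those fewer or more rows tested, the cause was not tested. Intensity trend, the mean over probe sets, the brightest probe set on the 10 arrays and no fold limit left these counts within 1.5 times.

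Leaving out 1 array gave 1 to 3 risen and 3 to 10 fallen at a fold above 2, 1 to 5 and 3 to 11 by adjusted p alone, 168 to 561 without overlap, in groups made smaller by 1, 1 to 3 and 3 to 8 list members, and 0 to 1 gene for the difference between responses. The count of 3 fallen came without ORX replicate 5, control replicate 4 or control replicate 5. Hspa1b lost its call without ORX replicate 3, control replicate 1 or 5, OVX replicates 2, 3 or 5, or control female replicates 2, 4 or 5. With a block for the replicate number, 4 genes rose at a fold above 2, 5 rose and 17 fell by adjusted p alone, 2 list members rose, and 2 genes passed for the difference between responses. Same-numbered ORX and control arrays deviated together with correlations of 0.05, 0.48, 0.76, 0.59 and -0.57, and 2 of 10 arrays correlated best with their own number, so the numbers were not taken as pairs. The number of arrays and the closeness of Gpr55 and Spetex2g to the array medians after ORX limit what the fold sizes can show.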

Other observations

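Other gene groups gave values that belong to no call. Interferon and antigen presentation genes were below 0 in 21 of 30 measured members (median -0.21, and -0.10 with the array SD as covariate), while the class II gene RT1-Ba passed with the covariate at 0.45 (adjusted p = 0.0303, limma), in the other direction. Cell cycle genes were above 0 in 18 of 25 (median 0.11), and 0 passed in either fit. Zona glomerulosa markers had 6 of 8 above 0 (median 0.10), and the potassium channel Kcnk3, which sets the resting potential of these cells, averaged 9.97 ± 0.31 in ORX adrenals and 9.51 ± 0.23 in control adrenals (SD, n = 5 each, difference 0.46, adjusted p = 0.996). With the covariate Kcnk3 was at 0.58 (adjusted p = 0.00873).

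Among genes of redox defence Hmox1, which degrades heme, and Gstt1, a glutathione transferase, did not pass in the fit of all arrays without the covariate, and passed with it, at 0.66 (adjusted p = 0.0352) and 0.36 (adjusted p = 0.0356). Sult1a1, a sulfotransferase raised by glucocorticoids in rat liver, averaged 7.06 ± 0.69 in ORX adrenals and 8.22 ± 0.34 in control adrenals (difference -1.15, adjusted p = 0.37), and was at -0.98 with the covariate (adjusted p = 0.00116). The early gene Ier3 was at 0.77 with the covariate (adjusted p = 0.0298). These genes were named after their values were seen.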
